A study of Mus musculus with 3 samples.

Results

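*Ucp1* and 6 further genes linked to heat production in fat were followed on spatial transcriptome slides of healing mouse skin: *Cidea*, *Elovl3*, *Dio2*, *Ppargc1a*, *Otop1* and *Slc27a2*. These 7 genes, of 32285 in the matrices, were taken by symbol, and the set was chosen on the measured *Ucp1* counts of Day 7. The counts of *Ucp1* between days are therefore given as a description. Each slide carries an array of spots, a spot being a small region that can hold several cells, and captured transcripts are counted per spot by unique molecular identifiers (UMIs).

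The slides held fresh frozen skin wounds of C57BL/6J mice (adult males, by the study's methods), taken on Day 3, Day 7 and Day 14 after a full-thickness punch wound of the back skin. There was 1 section per day, no unwounded section and no replicate, so no test between days was possible. Each spot is flagged in the deposited positions as covered by tissue or not, and is called marked or unmarked here. The study's appendix describes its selected spots as a region of interest. Whether unmarked spots lay off the tissue was not tested. Levels are pooled UMIs of a gene per 1000000 UMIs of all genes (CPM), with exact Poisson 95% intervals, which cover counting error only. In bulk values of this kind, fewer cells of a type and less RNA per cell cannot be told apart.

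All 7 are protein-coding genes, placed here on GRCm38 by gene identifier. *Ucp1* (ENSMUSG00000031710) lies on the plus strand at chr8:83290352-83298452 and *Otop1* (ENSMUSG00000051596) on the plus strand at chr5:38275972-38304217. *Ppargc1a* (ENSMUSG00000029167) lies on the minus strand at chr5:51454250-51567726 and *Dio2* (ENSMUSG00000007682) on the minus strand at chr12:90724552-90738438. *Slc27a2* (ENSMUSG00000027359) lies on the plus strand at chr2:126552407-126588243, *Cidea* (ENSMUSG00000024526) on the plus strand at chr18:67343604-67367785 and *Elovl3* (ENSMUSG00000038754) on the plus strand at chr19:46131897-46135694.

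*Ucp1* encodes the mitochondrial carrier of brown and beige adipocytes that lets protons re-enter the matrix without ATP synthesis, so that fuel is burned as heat. Cold and noradrenaline act through beta-adrenergic receptors, cyclic AMP and protein kinase A to raise it. *Cidea* coats lipid droplets, *Dio2* makes active thyroid hormone inside the cell, *Ppargc1a* is a coactivator of mitochondrial biogenesis, *Otop1* is a proton channel, *Elovl3* elongates very long chain fatty acids and *Slc27a2* takes up and activates them. *Elovl3* and *Cidea* are also known from sebaceous glands, the lipid-secreting glands attached to hair follicles.

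The promoters of *Ucp1* and *Otop1* are shown because these genes shared spots on Day 7, and that of *Dio2* because it is another known target of cyclic AMP in brown fat and had few UMIs in those spots. The sequences are the 250 bases before the RefSeq start site on GRCm38.p6, 5′ to 3′ on the gene's strand, and capitals mark the letters TGACG or their complement CGTCA, the core of a cyclic AMP response element.
Ucp1 (chr8:83290098-83290347, plus strand): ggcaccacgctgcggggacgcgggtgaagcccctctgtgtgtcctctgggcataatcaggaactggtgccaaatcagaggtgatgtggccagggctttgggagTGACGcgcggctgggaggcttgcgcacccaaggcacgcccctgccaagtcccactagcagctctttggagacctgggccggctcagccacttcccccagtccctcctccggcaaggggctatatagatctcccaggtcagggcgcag
Otop1 (chr5:38277154-38277403, plus strand): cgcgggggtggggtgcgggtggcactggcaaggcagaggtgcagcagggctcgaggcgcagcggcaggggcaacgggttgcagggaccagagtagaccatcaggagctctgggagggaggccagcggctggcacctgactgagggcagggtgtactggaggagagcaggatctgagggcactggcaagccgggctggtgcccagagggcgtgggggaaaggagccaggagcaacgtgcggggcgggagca
Dio2 (chr12:90739039-90739288, minus strand): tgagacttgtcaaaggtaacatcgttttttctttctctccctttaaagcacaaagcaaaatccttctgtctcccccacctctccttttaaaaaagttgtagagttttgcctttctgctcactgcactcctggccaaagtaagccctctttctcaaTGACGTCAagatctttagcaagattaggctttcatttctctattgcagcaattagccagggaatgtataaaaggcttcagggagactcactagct
The RefSeq promoter table held 5 of the 7 members, with *Cidea* and *Elovl3* not matched. TGACG, read on both strands, was in 3 of these 5 windows (*Ucp1*, *Dio2* and *Ppargc1a*), against 17.8% of all 32851 windows of the table. In *Dio2* the copies on the opposite strands overlap. The letters TATATA, near the start site of *Ucp1*, were in 1 of the 5 windows and in 5.25% of all windows. A match of letters is a description of the sequence before the RefSeq start site. RefSeq and GENCODE, the source of the gene positions above, place some starts differently. The *Otop1* window lies inside the gene as placed above, and the *Dio2* window lies apart from its gene.

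The Day 3, Day 7 and Day 14 sections held 664, 549 and 697 marked spots, with 1772259 to 4611723 UMIs per section, of 4992 spots on each slide. All 3 slides list the same 4992 positional barcodes. Unmarked spots were not empty. Of the UMIs of the Day 3, Day 7 and Day 14 slides they held 49%, 59.2% and 50.6%, so the members' levels by day are given for both zones.

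On Day 3, *Ucp1* had 0 UMIs in marked and 0 in unmarked spots. A count of 0 allows up to 1.69 CPM under the tissue mark and 1.76 CPM outside it (3 counts of the total). On Day 7 it had 430 UMIs in 258 marked spots, 96.8 CPM (87.8 to 106), and 2007 UMIs in 508 unmarked spots, 311 CPM (297 to 325). On Day 14 it was back to 6 UMIs in marked spots, 1.3 CPM (0.477 to 2.83), and 3 in unmarked spots, 0.636 CPM (0.131 to 1.86). *Ucp1* was thus seen in quantity on the Day 7 slide, and 82.4% of its 2437 UMIs there lay outside the marked tissue.

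*Otop1* had the same time pattern at a lower level. In marked spots its UMIs numbered 0, 23 and 1 over the 3 days, the Day 7 level being 5.18 CPM (3.28 to 7.77). Outside the mark it had 1, 92 and 0 UMIs, the Day 7 level being 14.2 CPM (11.5 to 17.5).

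*Cidea* was present on every day. In marked spots it had 165 UMIs on Day 3 (93.1 CPM, 79.4 to 108), 278 on Day 7 (62.6 CPM, 55.4 to 70.4) and 203 on Day 14 (44.0 CPM, 38.2 to 50.5). In unmarked spots it had 22.3 CPM (15.8 to 30.6), 164 CPM (154 to 174) and 22.1 CPM (18.02 to 26.7). By pooled UMIs its marked level was highest on Day 3, an order that turns between Day 3 and Day 7 when spots are weighted equally, and its unmarked level was highest on Day 7.

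*Elovl3* had the opposite order to *Ucp1* among days. In marked spots it had 386 UMIs on Day 3 (218 CPM, 197 to 241), 161 on Day 7 (36.2 CPM, 30.9 to 42.3) and 398 on Day 14 (86.3 CPM, 78.0 to 95.2). In unmarked spots it had 59.3, 15.6 and 35.6 CPM, in the same order of days. The Day 7 intervals did not overlap those of the other days in either zone.

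The other members were near the counting limit. *Dio2* had 6, 13 and 7 UMIs in marked spots over the 3 days, and 0, 15 and 6 in unmarked spots. *Ppargc1a* had 6, 9 and 10 UMIs in marked spots and 21, 42 and 21 outside, so its outside level ran from 12.3 CPM (7.63 to 18.8) on Day 3 to 4.45 CPM (2.76 to 6.81) on Day 14. *Slc27a2* had 2, 3 and 0 UMIs in marked spots and 0, 16 and 0 outside. Differences of *Dio2* between days were not detectable at this depth.

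**Figure D1:**
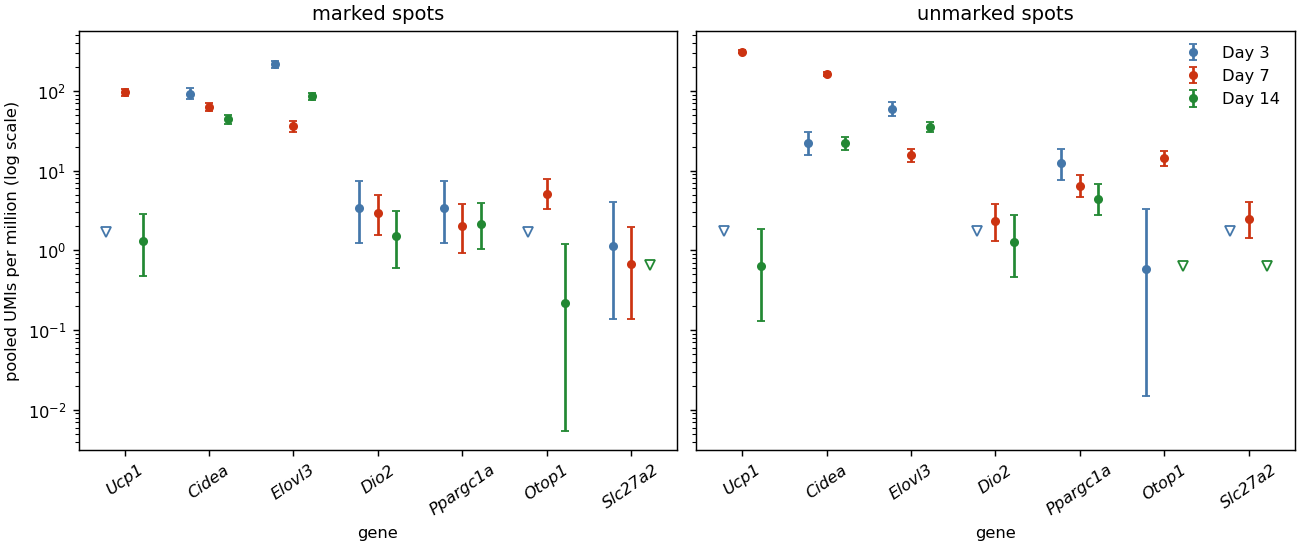
Pooled level of each of the 7 genes (CPM, log axis) in marked spots (left) and unmarked spots (right) on Day 3, Day 7 and Day 14. Points are pooled values with exact Poisson 95% intervals, and open triangles mark the level of 3 UMIs where none was counted; *Ucp1* reached 96.8 and 311 CPM on Day 7 against 1.3 and 0.636 CPM on Day 14.

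A gene is called higher or lower below where its pooled level differed at least 2-fold, its exact conditional binomial 95% interval left out equality, and it had at least 20 UMIs over both sides. Between days the rule is read for the members other than *Ucp1*, whose Day 7 level chose the set. Between Day 3 and Day 7, *Ucp1*, with 430 UMIs against 0, was at least 57.2-fold higher on Day 7 when set against 3 counts, with an exact lower limit of 5.53 for the log2 ratio. Of the other members, 3 had enough UMIs in marked spots. *Otop1* was called higher on Day 7 (8.40% of 12541 genes were called higher) and *Elovl3* was called lower (7.46% called lower). *Otop1*, with 23 UMIs against 0, was at least 3.06-fold higher set against 3 counts, with an exact lower limit of 1.20 for the log2 ratio. It passed the limit of 20 UMIs through Day 7 alone, so it could be called only in that direction. With a limit of 50 UMIs *Otop1* was not tested. *Elovl3* fell by 2.59 on the log2 scale (−2.86 to −2.32), or by 1.70 when every spot was weighted equally. *Cidea* had a log2 ratio of −0.57 (−0.86 to −0.29) and was not called. Its sign turned when every spot was weighted equally (0.81) and when all spots of the slide were pooled (1.07).

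The Day 14 to Day 7 comparison shares the Day 7 section with the former and had 4 members besides *Ucp1* with enough UMIs. *Ucp1* had a log2 ratio of −6.22 (−7.67 to −5.08), given as a description. *Otop1* (−4.58, −9.94 to −1.95) was called lower, beside 8.08% of 13412 genes. *Elovl3* was called higher (1.25, 0.98 to 1.53), beside 12.0% of genes. *Cidea* (−0.51, −0.78 to −0.24) and *Dio2* (−0.95, −2.51 to 0.48) were not called. Between Day 14 and Day 3, *Elovl3* (−1.34, −1.54 to −1.13) and *Cidea* (−1.08, −1.38 to −0.78) were called lower, beside 7.80% of 12866 genes called lower and 14.7% called higher. With every spot weighted equally these ratios were −0.57 and −0.20, which ends both calls, and that of *Cidea* between Day 14 and Day 7 was −1.01, which makes it a call.

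Sebaceous marker genes were lowest on Day 7 in both zones, as *Elovl3* was, but differed from it between Day 3 and Day 14. In marked spots the 10 genes of that list together had 1378, 469 and 1409 CPM over the 3 days (427, 268 and 597 CPM in unmarked spots), with none of the 10 at 0. From Day 3 to Day 7, 8 of the 9 tested were called lower, with a median log2 ratio of −2.15 beside 0.04 over all genes tested. From Day 7 to Day 14 all 9 tested were called higher, with a median of 1.58 beside 0.13. Between Day 3 and Day 14, 2 of the 9 tested were called lower, with a median of 0.04 beside 0.18, whereas *Elovl3* had −1.34. In unmarked spots the list was highest on Day 14 and *Elovl3* on Day 3. Adipocyte markers had another order of days and were lowest on Day 14. That list had 1075, 1172 and 343 CPM in marked spots and 1915, 2798 and 647 CPM in unmarked spots, so Day 3 had adipocyte RNA in both zones and no *Ucp1* UMI. The part of either list in the changes was not tested.

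The wider thermogenic lists did not move as one between days. Of 17 genes associated with brown or beige adipocytes, 14 were tested between Day 3 and Day 7 in marked spots. *Zic1*, *Tbx1* and *Tmem26* were called higher, *Epsti1*, *Clstn3* and *Gk* lower, and the median log2 ratio was −0.02 beside 0.04 over all genes. The largest of these ratios was that of *Tmem26*, a beige marker, which went from 2 to 137 UMIs (4.77, 2.89 to 7.83) and then to 9 UMIs on Day 14 (−3.98, −5.14 to −3.02). *Tbx1*, another beige marker, did not follow *Ucp1*: it rose again from Day 7 to Day 14 (1.94, 1.70 to 2.19). *Zic1* was called higher on Day 14 as well, and *Kcnk3* (−3.00, −4.38 to −1.86) and *S100b* (−1.05, −2.14 to −0.04) lower.

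Of 18 signalling genes, 13 were tested, and *Adcy3*, an adenylyl cyclase, was the one called between Day 3 and Day 7 (1.26, 0.46 to 2.15). In marked spots *Adrb3*, the beta-adrenergic receptor of adipocytes, had 19, 70 and 13 UMIs over the 3 days. Its log2 ratio was 0.56 (−0.19 to 1.37) at first and −2.48 (−3.46 to −1.62) afterwards, the latter called lower. *Prkar2b*, a regulatory subunit of protein kinase A, was called lower on Day 14 as well (−1.64, −2.02 to −1.27). Of the 14 fatty acid oxidation genes, all tested, 1 was called lower on Day 7 (*Fabp3*, −1.65, −1.82 to −1.48) and 2 on Day 14 (*Cpt2* and *Plin5*). Of 21 paralogues of the members, 13 were tested between Day 3 and Day 7, and *Elovl4*, *Elovl5*, *Elovl6*, *Elovl7* and *Slc27a4* were called lower. *Elovl4* to *Elovl7* were then called higher on Day 14, with *Ucp2* and *Otop2*, and *Cidec* lower.

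The *Ucp1* of the Day 7 slide had a place. Ranked by UMIs, its richest spots held 172, 171, 165 and 149 UMIs, and all of these were unmarked. Taking unmarked spots with at least 10 *Ucp1* UMIs, a limit set after seeing the data, gave 24 spots with 11, 28.5 and 172 UMIs as the lowest, median and highest. The richest unmarked spot just outside the limit held 8. These 24 spots are called the patch. They were chosen on *Ucp1*, whose level in them is a description.

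The patch held 1312 *Ucp1* UMIs, 53.8% of those of the slide, with 5.44% of all UMIs of the slide. Its spots formed 2 connected groups of 18 and 6 adjacent spots, 3 spot pitches apart (a pitch is the distance between neighbouring spot centres), and the whole was 10.4 pitches across. The groups had 2451 and 1421 CPM of *Ucp1*, 1070 and 979 CPM of *Cidea*, and 94.4 and 109 CPM of *Otop1*. The nearest marked spot was 6.93 to 17.3 pitches away from the patch spots. Patch spots were deep, with a median of 25382 UMIs against 6687 in marked spots of that slide and 453 in unmarked ones. Whether these spots lay under tissue was not tested.

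**Figure D2:**
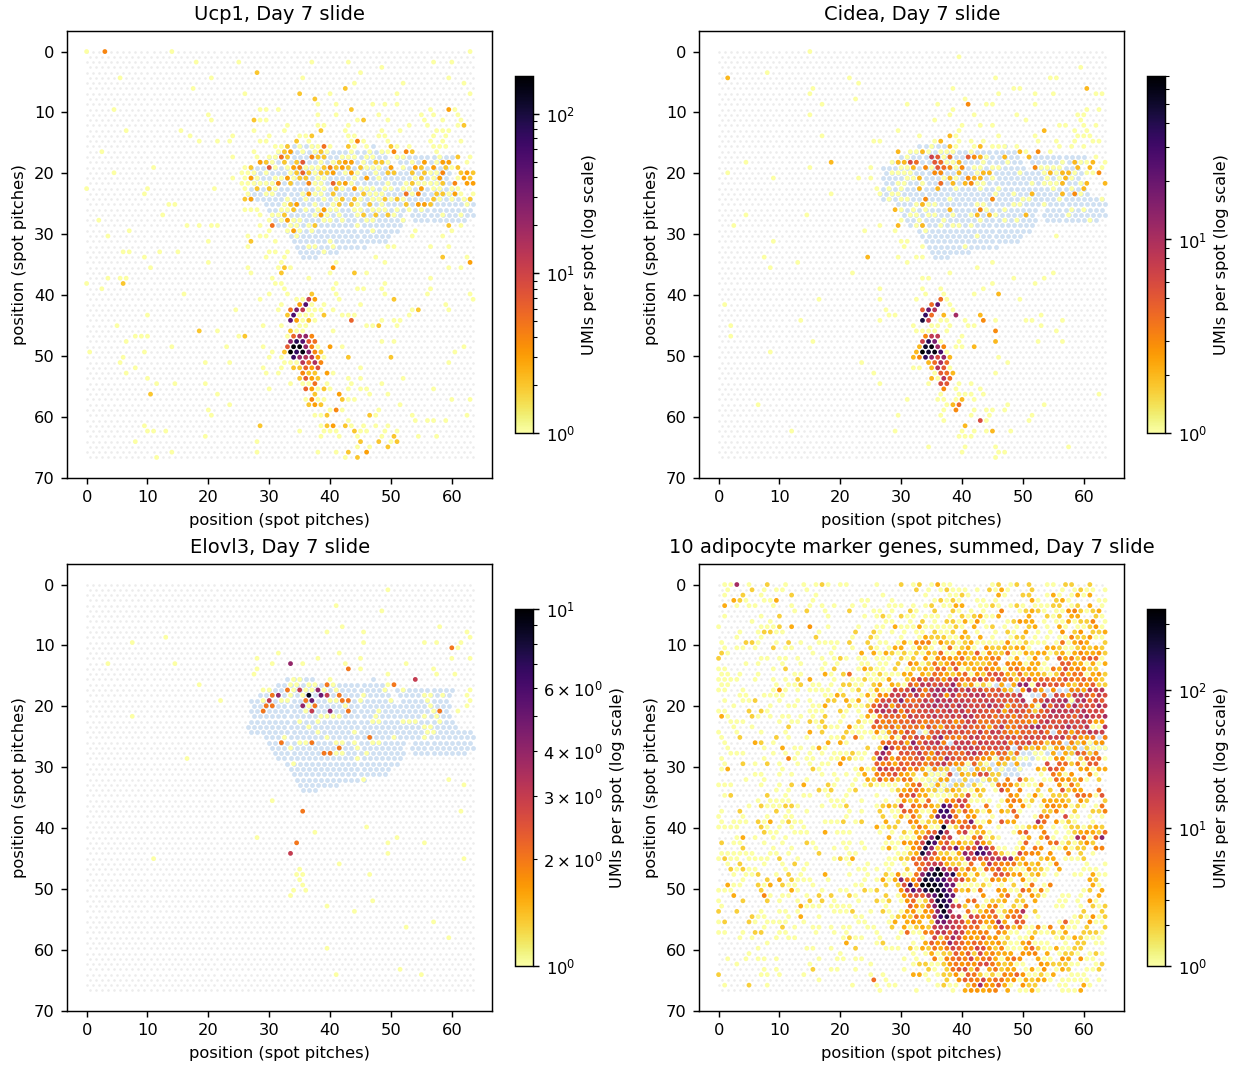
The Day 7 slide, each dot 1 spot, with axes in spot pitches; pale blue spots are marked as tissue and grey spots are not, and colour gives UMIs per spot (log scale) of *Ucp1*, *Cidea*, *Elovl3* and 10 adipocyte marker genes summed. *Ucp1* and *Cidea* peak, at 172 and 70 UMIs per spot, in the same unmarked patch, which lies in a larger adipocyte-rich unmarked area, while *Elovl3* gathers near the upper edge of the marked tissue.

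*Cidea* lay in all 24 patch spots, with 4, 18.5 and 70 UMIs as the lowest, median and highest. It had 622 UMIs there, 46.6% of its 1335 UMIs on the slide. *Otop1* lay in 18 of the 24 spots, with at most 7 UMIs in 1 spot, and 58 of its 115 UMIs (50.4%) were there. *Slc27a2* had 10 of its 19 UMIs (52.6%) in 6 patch spots. The 4 richest *Ucp1* spots held 70, 51, 65 and 61 *Cidea* UMIs and 7, 7, 2 and 6 *Otop1* UMIs, in that order.

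The other members had few UMIs in the patch, which held 5.44% of all UMIs. *Elovl3* had 12 of its 262 UMIs (4.58%) in 9 patch spots, with at most 3 in 1 spot. *Ppargc1a* had 5 of 51 UMIs (9.80%) and *Dio2* 2 of 28 (7.14%), each at most 1 in a spot. The 4 richest *Ucp1* spots held 0, 0, 1 and 1 UMIs of *Elovl3*.

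Away from the richest spot, the level of *Ucp1* fell over the first rings and then lay between 85.4 and 108 CPM. It had 2881 CPM (2672 to 3102) in the 13 spots within 2 pitches, 1229 CPM from 2 to 4 pitches, 499 CPM from 4 to 7 and 301 CPM from 7 to 11. From 11 to 16 pitches, where 2 of 492 spots were marked, it had 105 CPM (83.9 to 129). From 16 to 21 pitches its interval was 75.9 to 117 CPM, and from 21 to 31 pitches it had 85.4 CPM (76.1 to 95.5). From 31 to 46 pitches, where 221 of 1490 spots were marked, it had 108 CPM (97.6 to 119), an interval above that of the ring before. Over the rings from 0 to 16 pitches *Cidea* went from 1230 to 65.1 CPM and *Otop1* from 107 to 7.23 CPM, while *Elovl3* stayed between 9.01 and 13.7 CPM.

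**Figure D3:**
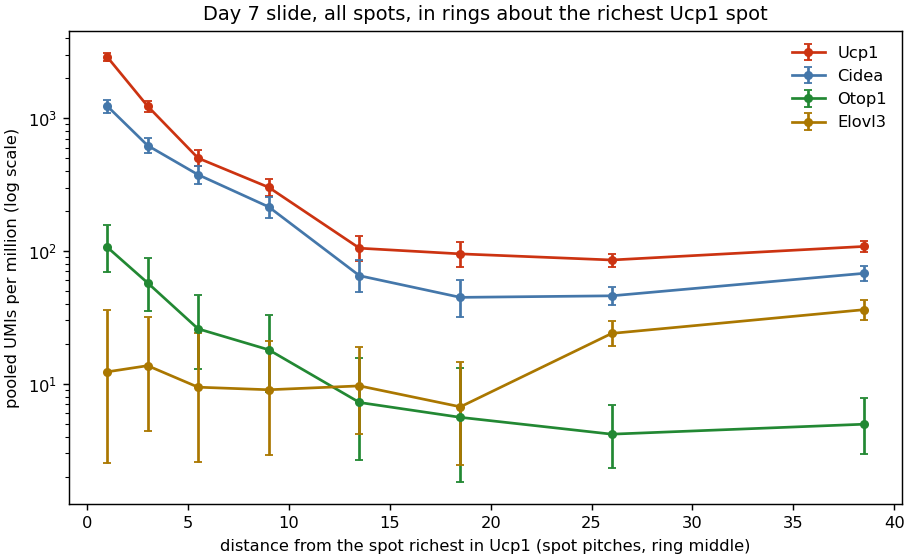
Level of *Ucp1*, *Cidea*, *Otop1* and *Elovl3* (CPM, log axis) in rings about the spot richest in *Ucp1* on the Day 7 slide, marked and unmarked spots together, against ring middle in spot pitches. Bars are exact Poisson 95% intervals; *Ucp1* falls from 2881 to 105 CPM by the ring of 11 to 16 pitches and lies between 85.4 and 108 CPM beyond it, whereas *Elovl3* is highest in the outermost ring (36.1 CPM).

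Adipocyte-rich spots were those with at least 5 UMIs of the 10-gene adipocyte list and at least 3 times its pooled level in their zone. By this rule 91 unmarked spots of Day 7 were adipocyte-rich, including 12 of the 24 patch spots. The other 79 held 105 *Ucp1* UMIs in 37 spots, at most 7 in a spot, 239 CPM (196 to 289). The patch had 2212 CPM (2093 to 2335). The 2 classes are unlike: median depth was 25382 UMIs in the patch and 1659 in the other 79 spots, and not all patch spots meet the adipocyte-rich rule. The part of these differences in the ratios below was not tested. The adipocyte list had 8570 CPM in the patch against 10950 CPM in the other adipocyte-rich spots, an order favoured by the choice of those spots on this list. None of the 2 sebaceous and 9 epidermal genes tested was called either way.

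*Cidea* was 5.06-fold higher in the patch than in these other adipocyte-rich spots (log2 ratio 2.34, 2.02 to 2.67), and *Otop1* was 5.37-fold higher (2.42, 1.35 to 3.70). Of 5738 genes tested, 1.85% were called higher and 5.58% lower. *Slc27a2* (10 against 1 UMIs, 2.89, 0.08 to 8.33) and *Elovl3* (12 against 2 UMIs, 2.15, −0.02 to 5.35) had too few UMIs to be called. *Ppargc1a* (5 and 5 UMIs) and *Dio2* (2 and 1) did not differ detectably. The *Otop1* ratio was 3.76 where the patch began at 5 *Ucp1* UMIs and 1.78 where it began at 20.

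Most genes of the fatty acid oxidation list, and a few of the brown and beige list, were called higher in the same spots. All 14 oxidation genes were tested, and 9 were called higher, with a median log2 ratio of 1.09 beside −0.19 over all genes. *Fabp3*, a fatty acid carrier, was 3.96-fold higher (1.98, 1.37 to 2.65). *Cox7a1* (1.71, 1.44 to 1.99) and *Cox8b* (1.15, 1.02 to 1.29), cytochrome oxidase subunits of brown fat and muscle, were called, as was *Cpt1b* (1.51, 0.88 to 2.19), which admits fatty acids to mitochondria. *Acadm*, *Acadl*, *Hadha*, *Acaa2* and *Pdk4* had ratios of 1.01 to 1.25.

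Of the 17 brown and beige genes, 7 were tested and 3 called. *Letmd1*, a mitochondrial inner membrane protein of brown fat, was 7.28-fold higher (2.86, 1.66 to 4.37), with 59 against 6 UMIs. *S100b*, with 23 UMIs against 0, was at least 5.68-fold higher set against 3 counts, with an exact lower limit of 2.09 for the log2 ratio. *S100b* passed the UMI limit through its patch counts alone, so it could be called only as higher. *Gk*, glycerol kinase, had a ratio of 1.15 (0.08 to 2.35). Among the paralogues, *Ucp3* was called (1.89, 0.77 to 3.19) and *Ucp2* was not (−0.08, −0.78 to 0.64).

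Signalling genes did not share this pattern, and white fat genes are given as a description. The other adipocyte-rich spots were chosen on the adipocyte list, which favours higher levels of its genes in them than in the patch. *Lep*, the leptin gene, was the 1 adipocyte marker called, and it was lower in the patch (−1.29, −1.97 to −0.63). *Adipoq* (−0.57, −0.70 to −0.45) and *Retn* (−0.83, −0.95 to −0.72) were below the 2-fold limit. None of the 12 signalling genes tested was called, *Adrb3* having a ratio of −0.38 (−0.86 to 0.11). *Cox7a1*, *Cox8b*, *Fabp3*, *Cpt1b* and *Ucp3* are also muscle genes. The 10-gene muscle list was lower in the patch, 17853 against 31780 CPM, with a median log2 ratio of −0.85 and 1 of 9 genes tested called, *Tnni2*, which was lower.

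*Ucp1* relative to *Adipoq*, made by all mature adipocytes, is given as a description, since its Day 7 counts chose the set. The 91 adipocyte-rich unmarked spots of Day 7 had 26.5 *Ucp1* UMIs per 100 *Adipoq* UMIs (23.8 to 29.5). The 47 such spots of Day 3 held 0 *Ucp1* against 389 *Adipoq* UMIs, and the 86 of Day 14 held 0 against 346. These allow up to 0.771 and 0.867 per 100. The patch had 132 (121 to 143), and the other adipocyte-rich unmarked spots of Day 7 had 9.58 (7.77 to 11.7). A gap in that direction was fixed in advance, because *Ucp1* chose the patch and *Adipoq* is in the list that chose the other spots. *Cidea* had 62.4 per 100 *Adipoq* UMIs in the patch (56.4 to 69.0), 8.30 (6.63 to 10.3) in the other Day 7 spots, 1.80 (0.719 to 3.74) on Day 3 and 0.867 (0.178 to 2.56) on Day 14. The oxidation genes *Cox8b*, *Cox7a1* and *Fabp3* were counted in the 47, 91 and 86 adipocyte-rich unmarked spots of all 3 slides, 12 patch spots of Day 7 included. *Cox8b* had 828, 1838 and 669 CPM, *Cox7a1* 323, 449 and 391 CPM and *Fabp3* 516, 100.3 and 181 CPM, so their orders of days differed.

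**Figure D4:**
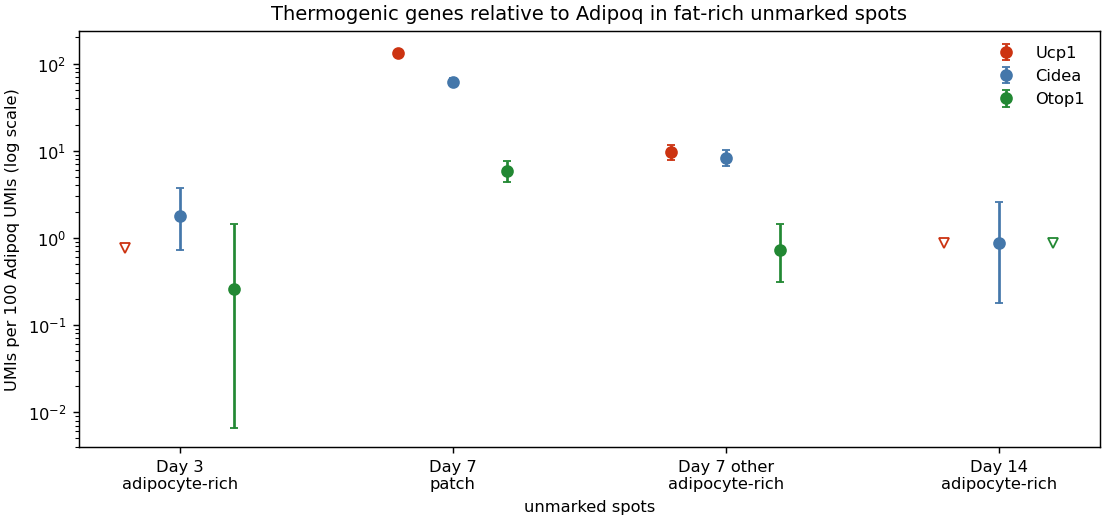
UMIs of *Ucp1*, *Cidea* and *Otop1* per 100 *Adipoq* UMIs (log axis) in fat-rich unmarked spots of each slide, the Day 7 patch apart. Bars are exact binomial 95% intervals and open triangles give the level of 3 UMIs where none was counted. *Ucp1*, which chose the patch, is at 132 there, 9.58 in other Day 7 spots and not counted on Day 3 and Day 14.

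Under the marked tissue of Day 7, *Ucp1* was spread thinly. Of the 549 marked spots, 258 (47.0%) held it, 155 of them with 1 UMI, 59 with 2, 31 with 3 and 13 with 4 to 7. The 10 richest spots held 12.1% (9.16 to 15.6) of the 430 UMIs, with 3.92% of all UMIs. The 10 richest unmarked spots held 51.3%. The 258 spots fell into 19 connected groups, the largest of 212 spots. In 4 equal bins of spots ranked by depth, from shallow to deep, the level was 96.9, 102, 122 (103 to 143) and 82.0 CPM (70.7 to 94.5), the intervals of the last bins not overlapping. Its spread relative to a Poisson expectation from depth was 1.17, against 1.52 for *Cidea* and 1.74 for *Elovl3*.

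The share of spots with *Ucp1* followed depth, the median being 9753 UMIs in *Ucp1* spots and 4072 in the other marked spots. Thinned to 1000 UMIs, with 24 shallower spots left out, 11.2% of 525 marked spots held it (8.67 to 14.3, Clopper-Pearson). Epidermis-rich spots, a tissue that should lack the gene, had 2 of 25 spots (8%, 0.984 to 26.0) and a pooled level of 144 CPM (94.1 to 211), and muscle-rich spots 1 of 24 (4.17%, 0.105 to 21.1) and 31.5 CPM (3.82 to 114). Median depths before thinning were 7128 UMIs for all these marked spots, 7427 for epidermis-rich and 2494 for muscle-rich spots. The share in marked spots lay within both intervals, but these rest on 2 and 1 spots and are wide. They cannot tell expression from background, and the share is not read as expression in those spots.

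The other members did not gather in the marked *Ucp1* spots. *Cidea* was in 115 of 258 *Ucp1* spots (44.6%) and in 60 of the other 291 (20.6%), but its level relative to depth was 66.0 against 57.1 CPM, a log2 ratio of 0.21 (−0.16 to 0.58). *Elovl3* had 35.9 and 36.7 CPM (−0.03, −0.50 to 0.45) and *Otop1* 5.50 and 4.67 CPM (0.24, −1.09 to 1.68). *Ppargc1a* had 8 UMIs against 1 (2.33, −0.57 to 7.80), *Dio2* 9 against 4 and *Slc27a2* 2 against 1. None of the 6 was called, beside 0.887% of 11836 genes called higher and 0.515% lower. Over all spots of the slide, patch included, *Cidea* (1.93) and *Otop1* (2.11) were called higher.

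*Ucp1* spots lay nearer to the epidermis than the others did. Their median distance to an epidermis-rich spot was 4 pitches, against 7 for the other marked spots, and to a sebaceous-rich spot 3 against 5. To a muscle-rich spot it was 9.54 against 6.56. *Ucp1* spots were also the deeper ones, as given above, and the part of depth in these distances was not tested.

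The genes most like *Ucp1* across the 549 marked spots, by Pearson correlation of log-scaled UMIs over 9424 genes, were *Krt5*, *Cyb5a*, *Fasn*, *Actc1*, *Fabp4*, *H2-K1*, *Csta1*, *Krt15*, *Perp* and *Ifi27l2a*. The coefficients ran from 0.32 to 0.24, and the points share the library and differ in depth. *Cidea* ranked 57 (0.19) and *Elovl3* 4745 (0.04). Across the 4443 unmarked spots the leading genes were *Pck1*, *Acaca*, *Cox6a1*, *Thrsp*, *Fasn*, *Ces1d*, *Cidea*, *Tkt*, *Ifi27l2a* and *Dbi*, with coefficients of 0.20 to 0.16. The lists of 10 shared 2 genes, *Fasn* and *Ifi27l2a*. Such weak coefficients in sparse counts are no finding.

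The other members were also set against *Ucp1*, as UMIs per *Ucp1* UMI, in the patch and elsewhere. Counts of *Ucp1* chose the patch and set a ceiling on the other unmarked spots. By that choice the ratios are lowered in the patch and raised in the other unmarked spots, so they are given as a description. *Otop1* had 0.0442 UMIs per *Ucp1* UMI in the patch (0.0334 to 0.0575), 0.0441 (0.0285 to 0.0652) in unmarked spots neither in the patch nor adipocyte-rich, and 0.0523 (0.0324 to 0.0802) in marked spots that were not sebaceous-rich. *Cidea* had 0.474 (0.430 to 0.522), 0.583 (0.509 to 0.667) and 0.587 (0.499 to 0.688) in the same order. *Elovl3* had 0.00915 (0.00471 to 0.0160), 0.147 (0.116 to 0.185) and 0.325 (0.266 to 0.396). The *Otop1* intervals overlapped among these 3 zones, those of *Cidea* overlapped between the patch and either other zone, and those of *Elovl3* were apart. In the adipocyte-rich unmarked spots outside the patch *Cidea* had 0.867 (0.647 to 1.16), above the patch, while *Otop1* had 0.0762 (0.0321 to 0.156) and *Elovl3* 0.0190 (0.00228 to 0.0705), both with intervals that overlapped those of the patch.

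*Elovl3* and part of *Cidea* lay in sebaceous-rich spots. By the same rule with 10 sebaceous genes, 18, 18 and 15 marked spots of the 3 sections were sebaceous-rich. *Elovl3* had 1044 CPM in them against 129 CPM in other marked spots on Day 3. It had 185 against 31.8 CPM on the Day 7 section and 438 against 69.7 CPM on the Day 14 section. *Cidea* had 545 against 44.4 CPM, 239 against 57.3 CPM and 293 against 32.2 CPM. Both were higher there on each day.

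The log2 ratios of *Elovl3* were 3.02 (2.72 to 3.31), 2.54 (1.85 to 3.17) and 2.65 (2.30 to 2.99), and those of *Cidea* 3.62 (3.16 to 4.08), 2.06 (1.47 to 2.60) and 3.19 (2.73 to 3.63). These are the 2 members called on each day, beside 7.65%, 3.25% and 3.97% of genes called higher and 5.34%, 0.836% and 2.14% called lower. The *Elovl4*, *Elovl5* and *Elovl6* paralogues were also called higher there on each day.

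*Ucp1* did not differ detectably between these spots and the other marked spots on Day 7. It had 9 UMIs in the sebaceous-rich spots of Day 7, 69.3 CPM (31.7 to 132), against 97.6 CPM in the other marked spots (log2 ratio −0.49, −1.63 to 0.44). On Day 14 it had 0 UMIs there and 6 elsewhere. With sebaceous-rich set at 2 or 5 times the pooled level, the Day 7 ratio was 0.47 or −1.99. *Otop1* had 1 UMI there on Day 7, and *Dio2* and *Ppargc1a* had 0 on each day.

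**Figure D5:**
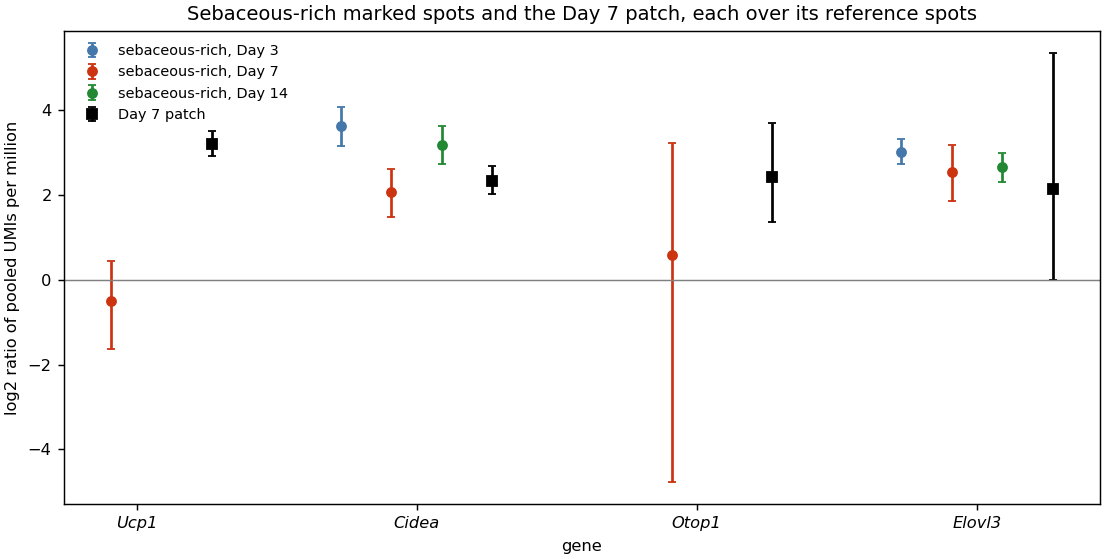
Log2 ratio of pooled level for *Ucp1*, *Cidea*, *Otop1* and *Elovl3*: sebaceous-rich over other marked spots on each day (circles), and the Day 7 patch over other adipocyte-rich unmarked spots (squares), with exact conditional binomial 95% intervals. Ratios with a count of 0 are not drawn; *Elovl3* is at 2.54 to 3.02 in sebaceous-rich spots, *Cidea* is high in both places, and *Ucp1*, which chose the patch, is at −0.49 in sebaceous-rich spots of Day 7.

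Adipocyte-rich spots within the mark were few, and the members had few UMIs in them. The 3 sections had 31, 6 and 11 such spots. *Ucp1* had 0, 1 and 0 UMIs in them, *Cidea* 1, 3 and 1, and *Elovl3* 6, 0 and 5. On Day 3, *Cidea* (log2 ratio −3.43, −8.74 to −0.93) and *Elovl3* (−2.06, −3.51 to −0.92) were called lower there, beside 8.24% of genes called lower and 5.71% higher. On Day 7 *Ucp1* had 46.8 against 97.0 CPM (−1.05, −6.36 to 1.43), and no member was called on Day 7 or Day 14. *Cidea* had 140 against 62.2 CPM on Day 7 (1.17, −1.11 to 2.74), and *Elovl3* 79.2 against 86.4 CPM on Day 14 (−0.13, −1.76 to 1.11).

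Outside the mark the members differed in direction on Day 7. *Ucp1*, whose Day 7 counts chose the set, had a log2 ratio of unmarked over marked of 1.68 (1.53 to 1.84), given as a description. *Cidea* (1.39, 1.20 to 1.58), *Otop1* (1.46, 0.79 to 2.19) and *Ppargc1a* (1.68, 0.62 to 2.91) were called higher, beside 3.43% of 13188 genes. *Elovl3* was called lower (−1.21, −1.59 to −0.84), beside 9.93% of genes. Without the patch the ratios of *Cidea* and *Otop1* were 0.25 and 0.16, and neither was called. That of *Ucp1* was 0.29, a fall fixed in advance because the patch was chosen on *Ucp1*. The adipocyte list was higher outside as well, 2798 against 1172 CPM with 7 of 10 genes called, and so was the muscle list, 113730 against 52126 CPM with 7 of 10 called.

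On Day 3 *Cidea* (−2.06, −2.61 to −1.54) and *Elovl3* (−1.88, −2.21 to −1.56) were called lower outside, beside 16.9% of 10974 genes, and *Ppargc1a* was called higher (1.86, 0.51 to 3.46), beside 3.42%. On Day 14 *Elovl3* was called lower (−1.28, −1.55 to −1.01), beside 15.1% of 13171 genes called lower and 2.67% higher. *Cidea* (−0.997, −1.35 to −0.65) fell just short of the 2-fold limit and *Ppargc1a* had a ratio of 1.04 (−0.11 to 2.29). *Ppargc1a* is also a muscle gene, and 8, 7 and 4 of the 10 muscle genes were called higher outside on Day 3, Day 7 and Day 14. The part of muscle in its levels was not tested.

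The wider lists outside the mark on Day 7 included *Adrb3* (1.47, 1.09 to 1.87), *Prkar2b*, *Thrb* and *Klb* among the 4 of 14 tested signalling genes called higher. *Kcnk3* (1.53, 1.09 to 1.98), *Nrg4* and *Clstn3* were called among 14 brown and beige genes tested, with *Tmem26* and *Tnfrsf9* lower. *Cox7a1* (1.56, 1.44 to 1.69) and *Cox8b* (1.76, 1.68 to 1.84) were the 2 of 14 oxidation genes called. *Ucp3*, *Cidec* and *Ppargc1b* were called among 14 paralogues tested.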

How the data were processed

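The 3 Visium libraries (Day 3, Day 7, Day 14; 1 section each) were grouped by the day in the labels. The authors ran Space Ranger 1.3.0 on mm10 to count UMIs of each gene in each spot (submitters' processing notes), and the deposited counts are raw and cover all 4992 spots of each slide. The annotation version is not given in the sources used here. UMIs were summed over spots and divided by all UMIs (CPM). Sums carry exact Poisson, shares exact binomial and ratios exact conditional binomial 95% intervals, which give counting error and say nothing of the spread among animals or sections. A gene was called at a 2-fold difference with an interval that left out equality and at least 20 UMIs. A count of 0 was set to 3 counts for a bound. Total marked UMIs of 1772259, 4442962 and 4611723 on Day 3, Day 7 and Day 14 set the precision.

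The members and gene lists were chosen with earlier results of these data known. The text names the 7 members, the called genes of the 4 pathway lists and the 10 genes most correlated with *Ucp1*. The patch was defined after its values were seen, and *Adipoq*, *Retn*, *Lep*, *Tnni2*, *Ucp2*, *Adrb3*, *Cox8b*, *Cox7a1* and *Fabp3* in the patch or fat spots were named after their values were seen. Thinning drew 1000 UMIs per spot without replacement (seed 1). Gene positions came from GENCODE M21 on GRCm38 and promoters from RefSeq. Alternatives were the mean of spot CPM, TMM factors (edgeR 4.0.16), DESeq2 1.42.0 size factors, spots with at least 500 UMIs, all spots of the slide, other UMI minimums and other limits for spot classes. Ratio intervals were tested on simulated counts. The software was R 4.3.3 and Python 3.11.15 (matplotlib 3.10.9, pandas 2.3.3, scipy 1.17.1, numpy 2.4.6). The study's cell type deconvolution and wound annotation were not used, and no doublet caller was run.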

Additional observations from a re-analysis of the deposited data

Results flagged for a closer look

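*Cidea* differed in direction between slides. Its log2 ratio of unmarked over marked spots was 1.39 on Day 7 but −2.06 on Day 3 and −0.997 on Day 14, and the 3 counting intervals left out 0. With 1 section per day the difference between slides was not tested. Without the patch of *Ucp1*-rich spots the Day 7 ratio was 0.25.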

How the results depend on the processing

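With 1 section per day no replicate could be left out, and no value includes variation between animals. The share of marked Day 7 *Ucp1* UMIs in the richest spots was 7.21% for 5 spots and 19.8% for 20, and 42.3% for the 10 richest spots of the whole slide. Calls among the 6 other members in *Ucp1* spots went from 0 to 2 when all spots of the slide were used, and to 0 over the whole slide without the patch, where *Cidea* had a log2 ratio of 0.74. Between days there were 8 calls over the 3 pairs of days, and 6 to 10 under the alternatives. Of the 8, 2 were of *Ucp1*, which the choice of the set fixed, and those of *Otop1* passed the UMI limit through its Day 7 counts. Calls in sebaceous-rich spots stayed at 6 and in adipocyte-rich marked spots at 2, although at 5 times the pooled level no spot of Day 7 was adipocyte-rich. Calls outside the mark were 9, that of *Ucp1* on Day 7 among them, and 6 to 10 under the alternatives. Of single ratios, 204 stayed within the counting interval, 25 moved beyond it and none that was called changed sign. The patch alternatives and its removal were added after seeing the data. Genes under about 20 UMIs per comparison, which included *Dio2* and *Slc27a2* in most, could not be called at this depth.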
